A study of Mus musculus with 12 samples.

Results

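Integrins are the cell surface receptors that hold a cell to its surroundings, and 10 of their genes are described here: the alpha subunits Itga1, Itga2, Itga4, Itga5, Itga6, Itga8 and Itgav and the beta subunits Itgb1, Itgb3 and Itgb5. They were chosen by name, as the rows of the expression table that carry these symbols, and all 10 were found among its 24015 gene symbols. RNA was sequenced from endothelial cells, the cells lining the blood vessels, of the brains of wild-type C57BL/6 mice. The old group held 6 samples from mice of 19 months and the young group 6 samples from mice of 3 months. Each sample combined the cortex and hippocampus of 2 mice, from which endothelial cells were sorted by flow cytometry. No other treatment or allele is given in the labels. Each sample held 25809499 to 40393814 reads in genes.

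Each integrin is a pair of 1 alpha and 1 beta subunit. The pair decides what is bound: laminins and collagens of the vessel's basement membrane, proteins with the peptide motif RGD such as fibronectin and vitronectin, or a receptor on another cell. Talins and kindlins bind the tail of the beta subunit inside the cell and switch the receptor to its binding state. In brain vessels, integrins with the beta1 chain anchor the endothelium to the basement membrane that it shares with pericytes and astrocyte endfeet.

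Of the 10 subunits, 1 rose and 3 fell with age. Itgb5 was 3.2-fold higher in old samples, while Itga4 was 2.57-fold lower, Itga5 1.41-fold lower and Itga8 almost limited to the young samples. Itga1, Itga6, Itgav, Itgb1 and Itgb3 did not pass the test, and Itga2 was too low to be tested. The test was limma on log2(normalized count + 1), with p-values adjusted over all 12777 genes whose mean was at least 10 and a threshold of 0.05. By that rule 6.94% of all genes were called, 3.73% higher and 3.21% lower in old, against 4 of the 9 subunits tested, or 3 of 8 without Itga8. Itga8 passed the filter on low values through its young samples alone and so had to differ, which makes its call no support, and the subunits were chosen with earlier results of these data known. The median log2 fold of the 9 was -0.40, against -0.01 over all genes tested. The same 4 of the 9 subunits had no overlap between the 6 old and 6 young samples, or 3 of 8 without Itga8, whose lack of overlap is no support either. Over all genes 4.29% showed no overlap, 2.18% with old above young and 2.11% with old below.

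**Figure D1:**
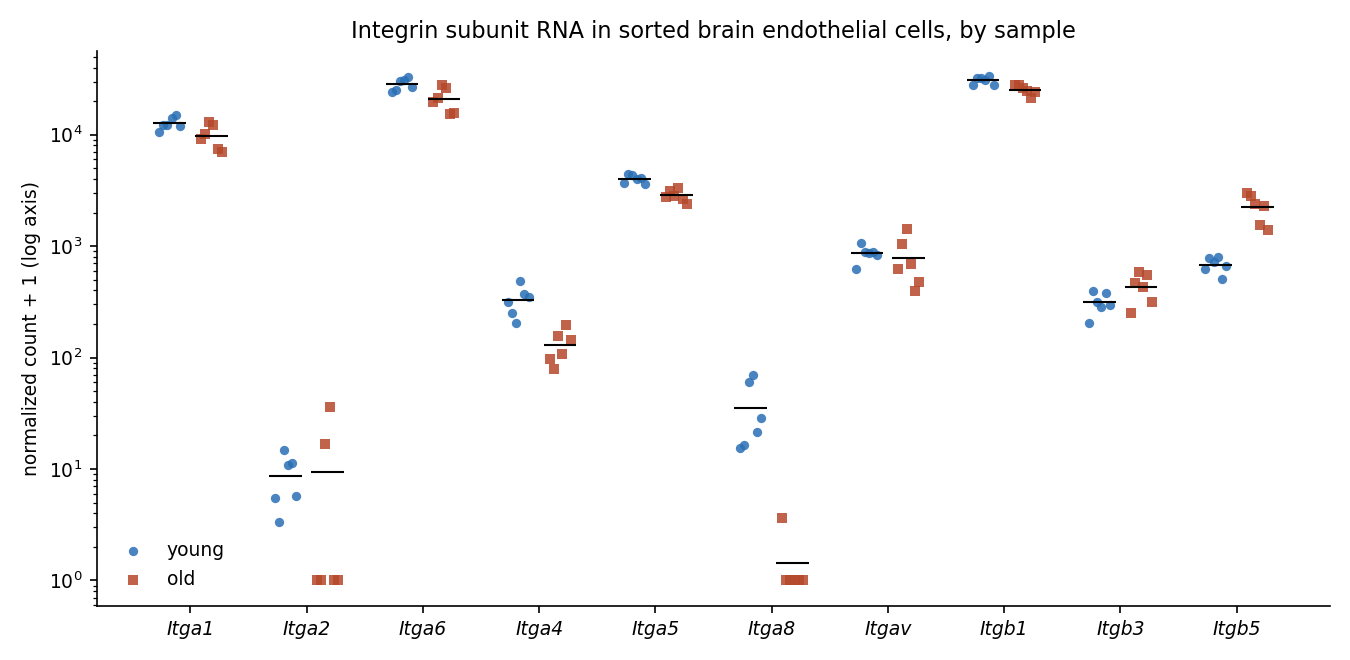
Normalized count + 1 (log axis) of the 10 integrin subunits in each sample, young as circles and old as squares, with a line at the mean of each age. Itgb5 lay above and Itga4, Itga5 and Itga8 lay below the young samples in 6 of 6 old samples, and for the other 6 genes the ages overlapped.

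Windows at the RefSeq starts of the 4 called subunits are printed to show what sequence stands before genes that moved in opposite directions. Each window holds 250 bases before and 50 after the start of the gene in RefSeq, build GRCm38.p6, written 5′ to 3′ on the gene's strand, with every GC box (GGGCGG, or CCGCCC on the other strand, a binding motif of Sp family factors) in capitals. Itgb5 lies at chr16:33829415-33829714 on the plus strand, Itga4 at chr2:79255176-79255475 on the plus strand, Itga5 at chr15:103366742-103367041 on the minus strand and Itga8 at chr2:12301895-12302194 on the minus strand.
Itgb5: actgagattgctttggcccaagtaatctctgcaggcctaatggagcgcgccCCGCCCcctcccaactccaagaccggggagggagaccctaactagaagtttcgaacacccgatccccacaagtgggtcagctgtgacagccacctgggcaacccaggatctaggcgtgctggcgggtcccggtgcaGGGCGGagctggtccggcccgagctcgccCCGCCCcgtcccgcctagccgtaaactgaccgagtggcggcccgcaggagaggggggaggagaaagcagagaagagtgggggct
Itga4: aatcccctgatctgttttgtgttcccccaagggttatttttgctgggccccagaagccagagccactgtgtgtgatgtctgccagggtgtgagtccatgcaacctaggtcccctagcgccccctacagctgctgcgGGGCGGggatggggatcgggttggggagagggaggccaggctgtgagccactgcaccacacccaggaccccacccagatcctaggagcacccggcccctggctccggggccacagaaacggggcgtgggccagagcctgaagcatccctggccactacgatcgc
Itga5: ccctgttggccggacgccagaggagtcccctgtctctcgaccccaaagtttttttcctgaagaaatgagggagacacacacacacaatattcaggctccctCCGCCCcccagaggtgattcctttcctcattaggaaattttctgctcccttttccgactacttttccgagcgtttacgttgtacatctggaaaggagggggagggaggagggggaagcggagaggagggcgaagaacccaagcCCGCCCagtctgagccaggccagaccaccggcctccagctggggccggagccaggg
Itga8: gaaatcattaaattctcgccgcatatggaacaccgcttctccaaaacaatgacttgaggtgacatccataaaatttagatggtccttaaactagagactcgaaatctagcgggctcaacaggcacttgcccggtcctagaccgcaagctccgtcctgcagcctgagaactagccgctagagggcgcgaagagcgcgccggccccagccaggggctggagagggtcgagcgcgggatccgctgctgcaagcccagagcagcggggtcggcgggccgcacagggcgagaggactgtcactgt
The Itgb5 window held 3 GC boxes, the Itga5 window 2, the Itga4 window 1 and the Itga8 window 0. GC boxes occurred in 35.7% of the 32851 mouse windows of this length, so a match is common. All motifs were searched on both strands. None of the 4 windows held the TATA box (TATAAA), found in 13.6% of windows, or the CCAAT box (CCAAT), found in 37.4%. None held the E-box (CACGTG), found in 7.15%, or the AP-1 site (TGANTCA), found in 7.81%. The ETS core CCGGAA, in 14.9% of windows, was found in none of the 4 and in 1 other subunit's window, that of Itgb1. The 4 windows were 58.7% to 65.7% G and C. The last bases of the Itgb5 and Itga4 windows, after the start, were found in a GENCODE M21 transcript of the gene. Those of the Itga5 and Itga8 windows were not. A splice within these bases would also prevent a match, so whether the RefSeq and GENCODE starts differ is not settled. Windows were found for 8 of the 10 subunits, all but Itga6 and Itgb3. A match is a run of letters and no evidence of binding.

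The labelled cell type was checked against its markers. All 14 endothelial markers, among them Pecam1, Cdh5 and Cldn5, were above 0 in every sample, and their summed normalized counts ran from 1105176 to 1409766 in old and from 1311744 to 1480314 in young samples. RNA of other cell types was present in amounts that differed between samples, with marker sums below the endothelial ones. Sums of 10 pericyte markers ran from 932.7 to 10668 in old and 1879 to 18288 in young samples, with old 3 and young 4 highest. Sums of 10 smooth muscle markers were 1177 to 3851 and 2678 to 6177, with 4 of 9 tested members lower in old by limma and 1 by edgeR. Sums of 11 astrocyte markers were 11872 to 47219 and 7020 to 38854, with old 3 and young 9 highest. Of these markers 1 was called higher in old by limma and 0 by edgeR. All 11 had a positive log2 fold, with a median of 1.90, and 10 had an unadjusted limma p under 0.05. Among markers of vessel segments, 4 of 12 arterial markers were higher in old, and 3 of 7 capillary and 3 of 8 venous markers were lower, by limma and by edgeR alike. Beside these marker counts, limma called 3.73% of all genes tested higher and 3.21% lower in old, and edgeR called 6.05% in either direction. The arterial sums were 51118 to 69319 in old and 37111 to 51577 in young samples, and the capillary sums 130023 to 164328 and 176453 to 210964. The slope of log2 values on the GC content of the transcript, per 10% of GC, was lowest in young 9 (-0.17), old 9 (-0.165) and old 7 (-0.076) and highest in young 1 (0.115) and old 1 (0.131). In these bulk samples, fewer cells of a type and less RNA per cell cannot be told apart.

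Itgb5 encodes beta5, which pairs only with alpha v and binds vitronectin and other RGD proteins. Its normalized count was 3020, 2835, 2372, 1550, 2282 and 1401 in old 1, 2, 3, 4, 7 and 9, and 624, 782, 726, 803, 502 and 656 in young 1, 2, 3, 4, 5 and 9. Every old sample lay above every young sample, and old 4 and old 9 were the lowest of the old. The means were 2243 ± 658 and 682 ± 112 (SD, n = 6 each), a log2 fold of 1.68 ± 0.19 (SE; 95% confidence interval 1.27 to 2.08) with a limma adjusted p of 0.000181. A count test on the recovered reads, edgeR's quasi-likelihood test, gave 1.72 with an adjusted p of 0.000223, where 6.05% of all genes were called. The exact permutation test over the 924 labellings of the samples gave its smallest possible p, 0.00216 (two-sided).

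The rise of Itgb5 was set beside marker lists whose sums ran higher in old samples. The median arterial sum was 58908 in old and 45797 in young samples. The highest young arterial sum, 51577 in young 3, lay just above the lowest old one, 51118 in old 3. Their Itgb5 counts were 726 and 2372. No score of arterial or capillary markers was used as a covariate, and their part in the Itgb5 values was not tested. The median astrocyte sum was 22734 in old and 8802 in young samples. Of the lowest sum of each age, the marker Gja1 alone held 4145 of 7020 in young 5 and 4240 of 11872 in old 4. Young 9 had the highest astrocyte marker sum of the young, 38854, above 5 of 6 old samples, and an Itgb5 count of 656. Old 4 had the lowest astrocyte sum of the old, 11872, and an Itgb5 count of 1550. Old 9 and old 1 came next, with sums of 16718 and 17000 and Itgb5 counts of 1401 and 3020. Whether the Itgb5 reads came from astrocytes was not tested. Microglia also express Itgb5, and the sums of 10 microglial markers ran from 1516 to 2291 in old and from 1319 to 1659 in young samples, with 0 of 8 tested members called. With a score of the astrocyte markers as a covariate the log2 fold of Itgb5 was 1.52 (limma adjusted p = 0.00643), and with a score of pericyte and smooth muscle markers it was 2.13 (4.89e-05). Without old 7, old 9 and young 9 it was 1.80 (0.000553). The transcripts of Itgb5 and Itga5 had 57.0% and 57.5% GC, the most of the 10 subunits, and the part of GC content in their values was not tested.

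Itgav encodes alpha v, the partner of beta5 and of beta3. Its normalized count ran from 397 through a median of 654 to 1418 in old and from 628 through 875 to 1059 in young samples, so the old samples spanned the whole young range. Their coefficient of variation was 50.2%, against 16.2% in young. The log2 fold was -0.28 (interval -0.83 to 0.27, limma adjusted p = 0.548). Its sign changed under 2 other settings, to 0.06 without old 7, old 9 and young 9 and to 0.26 with the mural marker score (pericyte and smooth muscle) as a covariate.

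Itgb3 encodes beta3, which with alpha v binds vitronectin and fibronectin and with alpha IIb forms the fibrinogen receptor of platelets. Its counts were 249, 465, 583, 425, 551 and 317 in the old and 201, 396, 312, 284, 379 and 298 in the young samples, in the same order of samples. The mean was 432 ± 130 in old and 311.5 ± 70.3 in young, the ages overlapped, and the log2 fold of 0.44 (interval -0.04 to 0.92) did not pass the test (limma adjusted p = 0.251). Sums of 7 platelet markers ran from 111 to 540 in old and from 161 to 396 in young samples, and their part in the Itgb3 values was not tested.

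Per kilobase of transcript, a scale on which genes can be compared, the balance of beta5 to its partner differed between ages in every sample. The ratio of Itgb5 to Itgav was 10.5, 5.83, 3.60, 4.82, 12.4 and 6.38 in old 1, 2, 3, 4, 7 and 9, and lay between 1.22 and 2.13 in the young samples. Itgb5 also stood above Itgb3 in all 12 samples, by a ratio of 6.42 to 21.4 in old and 2.34 to 5.46 in young. These ratios are given as descriptions, since they contain the Itgb5 difference already tested.

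Itga5 encodes alpha5, which pairs with beta1 as the main fibronectin receptor. Its normalized count was 2764, 3142, 2837, 3355, 2663 and 2381 in old 1, 2, 3, 4, 7 and 9, and 3681, 4449, 4344, 3962, 4059 and 3614 in young 1, 2, 3, 4, 5 and 9. All old samples lay below all young samples, with old 4, at 3355, nearest to the lowest young value of 3614. The means were 2857 ± 347 and 4018 ± 339 (SD, n = 6 each), a log2 fold of -0.50 ± 0.10 (SE; interval -0.71 to -0.29) with a limma adjusted p of 0.00694 and an edgeR adjusted p of 0.0101. Its coefficient of variation was 12.2% in old and 8.44% in young samples. With the mural score as a covariate the log2 fold was -0.48 (limma adjusted p = 0.0973), and with the astrocyte score -0.40 (0.156), both no longer past the threshold.

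Itga8 encodes alpha8, which pairs with beta1, binds RGD ligands such as nephronectin, and is known from smooth muscle and other contractile cells. It had 3 reads in old 1 and 0 reads in the other 5 old samples, and 16, 13, 52, 63, 22 and 29 reads in young 1, 2, 3, 4, 5 and 9. As normalized counts the young samples ran from 14.4 to 69.3, old 1 was at 2.65, and a count of 0 in the other old samples allowed up to 2.31 to 3.67. Over all samples the 195 young and 3 old reads gave a ratio of 70.8, with a 95% counting interval of 23.9 to 346 that covers counting error only. The limma adjusted p was 0.00254 and the edgeR adjusted p 0.00234, with fitted log2 folds of -4.57 and -5.88 that depend on the added constant. These p-values add nothing to the counts, since the gene entered the test through its young samples.

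The level of Itga8 was set beside the mural markers, whose sums had lower medians in old than in young samples (1899 against 4785 for pericytes, 2628 against 5322 for smooth muscle). Young 4 was highest for both Itga8 (69.3) and the pericyte sum (18288). Old 3 had the highest pericyte and smooth muscle sums of the old samples, 10668 and 3851. Young 5 had the lowest of the young samples, 1879 and 2678. Old 3 had 0 Itga8 reads where young 5 had 22. Whether the Itga8 reads came from mural cells was not tested. With the mural score as a covariate the log2 fold was -3.99 and the limma adjusted p 0.0733.

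Itga4 encodes alpha4, which pairs with beta1 or beta7, binds VCAM1 and fibronectin, and is best known from leukocytes. Its normalized count was 95.3, 78.4, 155, 108, 194 and 142 in old 1, 2, 3, 4, 7 and 9, and 315, 252, 204, 482, 373 and 352 in young 1, 2, 3, 4, 5 and 9. The ages did not overlap, though old 7 at 194 and young 3 at 204 were close. The means were 129 ± 42.9 and 330 ± 97.5 (SD, n = 6 each), a log2 fold of -1.36 ± 0.26 (SE; interval -1.91 to -0.81) with a limma adjusted p of 0.00522 and an edgeR adjusted p of 0.00672.

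Leukocyte RNA was low and uneven. Sums of 10 leukocyte markers ran from 35.4 to 396 in old and from 47.2 to 564 in young samples, with Cd3e and Cd3g, the T cell receptor subunits, at 0 in every sample. The highest sums were in old 7 and young 4, which also had the most Itga4 of their age. Young 3 had a leukocyte sum of 47.2 and an Itga4 count of 204, against 396 and 194 in old 7. The part of leukocyte RNA in the Itga4 values was not tested. Without young 4 the log2 fold of Itga4 was -1.24 (limma adjusted p = 0.0175). With the mural score as a covariate it was -1.36 with a limma adjusted p of 0.0752, no longer past the threshold. In the annotation of GRCm38, Itga4 overlaps Cerkl, a ceramide kinase-like gene, which moved the other way, from 78.5 in young to 176 in old samples (log2 fold 1.14, limma adjusted p = 0.0186). The library kit does not mark strand, so reads of the stretch that both genes cover cannot be told apart.

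**Figure D2:**
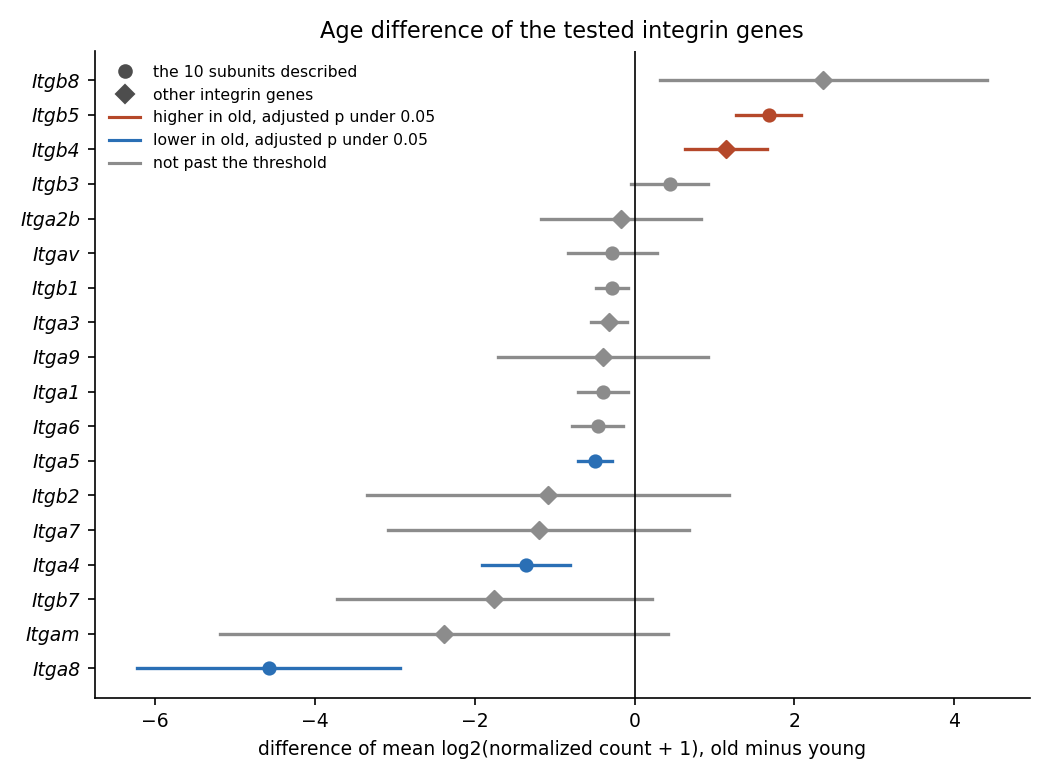
Difference of mean log2(normalized count + 1), old minus young, with its 95% confidence interval (limma), for the 9 tested subunits described here (circles) and the 9 other tested integrin genes (diamonds). Itgb5 and Itgb4 lay on the higher side and Itga5, Itga4 and Itga8 on the lower side with adjusted p under 0.05.

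Itga6 encodes alpha6, a laminin receptor with beta1 or beta4. Its normalized count was 19839, 21169, 27642, 26503, 15202 and 15681 in old 1, 2, 3, 4, 7 and 9, and 23914, 25254, 30372, 31130, 32654 and 26844 in young 1, 2, 3, 4, 5 and 9. The means were 21006 ± 5248 and 28362 ± 3518, and the ages overlapped because old 3 and old 4 lay within the young range. The log2 fold of -0.46 (interval -0.78 to -0.14) did not pass the test (limma adjusted p = 0.0791, exact permutation p = 0.0216 unadjusted). It passed without old 3 (-0.55, limma adjusted p = 0.0351) and without old 4 (-0.54, 0.0433).

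Itga1 encodes alpha1, which with beta1 binds collagens, collagen IV of the basement membrane among them. Its normalized count ran from 6931 through a median of 9680 to 12927 in old and from 10583 through 12190 to 14941 in young samples. The log2 fold was -0.40 (interval -0.71 to -0.08, limma adjusted p = 0.12). Old 3 and old 4 were again the highest of the old samples and old 7 and old 9 the lowest. The ratio of Itga1 to Itga6 per kilobase stayed between 0.159 and 0.194 in all 12 samples.

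Itga2 encodes alpha2, the other collagen receptor chain of the set. It was near the detection limit, with 51 reads over the old and 44 over the young samples, a young to old ratio of 0.940 with a counting interval of 0.613 to 1.44. Of the old samples only old 3 and old 4 had reads, at 15.9 and 35.0 normalized counts, while all 6 young samples had reads, at 2.37 to 13.8. Its mean over all samples was under 10, so it was not tested.

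Itgb1 encodes beta1, the common partner of alpha1, alpha2, alpha4, alpha5, alpha6 and alpha8. Its normalized count was 27986, 27951, 26128, 24773, 21208 and 24086 in old 1, 2, 3, 4, 7 and 9, and 27757, 32381, 32290, 30848, 33641 and 27881 in young 1, 2, 3, 4, 5 and 9. The means were 25355 ± 2585 and 30800 ± 2473, a log2 fold of -0.28 ± 0.10 (SE; interval -0.49 to -0.08). It did not pass with limma (adjusted p = 0.0858) or edgeR (0.0931) and passed with DESeq2 (-0.28, 0.0267), which called 10.3% of all genes. Old 1 and old 2 lay just above the lowest young samples, young 1 and young 9.

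Per kilobase, the order of the subunits in young samples was Itgb1 at 8073 ± 648 normalized counts, Itga6 at 6580 ± 816, Itga1 at 1154 ± 145, Itga5 at 917 ± 77.4, Itgb5 at 208 ± 34.2, Itgav at 122 ± 19.7, Itgb3 at 53.9 ± 12.2, Itga4 at 33.8 ± 9.98, Itga8 at 5.94 ± 4.12 and Itga2 at 1.07 ± 0.617. Itga1 and Itga5 overlapped in range, as did Itgb1 with Itga6 and Itgb3 with Itga4. In old samples Itgb5, at 684 ± 200, stood between Itga1 (894 ± 220) and Itga5 (652 ± 79.3), and the ranges of the 3 overlapped. Itgb1 (6646 ± 678) and Itga6 (4874 ± 1218) remained highest, and Itga4 was at 13.2 ± 4.39. These levels use the longest protein-coding transcript of each gene in GENCODE M21, which need not be the isoform made in these cells.

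Shares of the summed alpha or beta RNA per kilobase show the makeup of the 2 pools. Itgb5 held 6.16% to 10.7% of beta RNA in old and 1.67% to 2.88% in young samples. Itgb1 held 83.2% to 91.0% in old and 94.96% to 96.2% in young samples, without overlap for either gene. The Itgb1 share depends on the rise of other beta genes in the same total and on the level of Itgb1 itself. That level was 6646 in old and 8073 in young samples per kilobase, and the counts of Itgb1 overlapped between ages. The shares of the main alpha subunits overlapped between ages: Itga6 held 69.0% ± 2.54 of alpha RNA in old and 69.9% ± 1.67 in young samples, Itga1 12.7% ± 0.520 and 12.3% ± 0.597, and Itga5 9.51% ± 1.36 and 9.82% ± 1.09. With coding length in place of transcript length, the lowest old share of Itgb5 was 5.24% and the highest young share 2.44%, while the mean share of Itga6 was 57.5% in old and 58.6% in young.

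**Figure D3:**
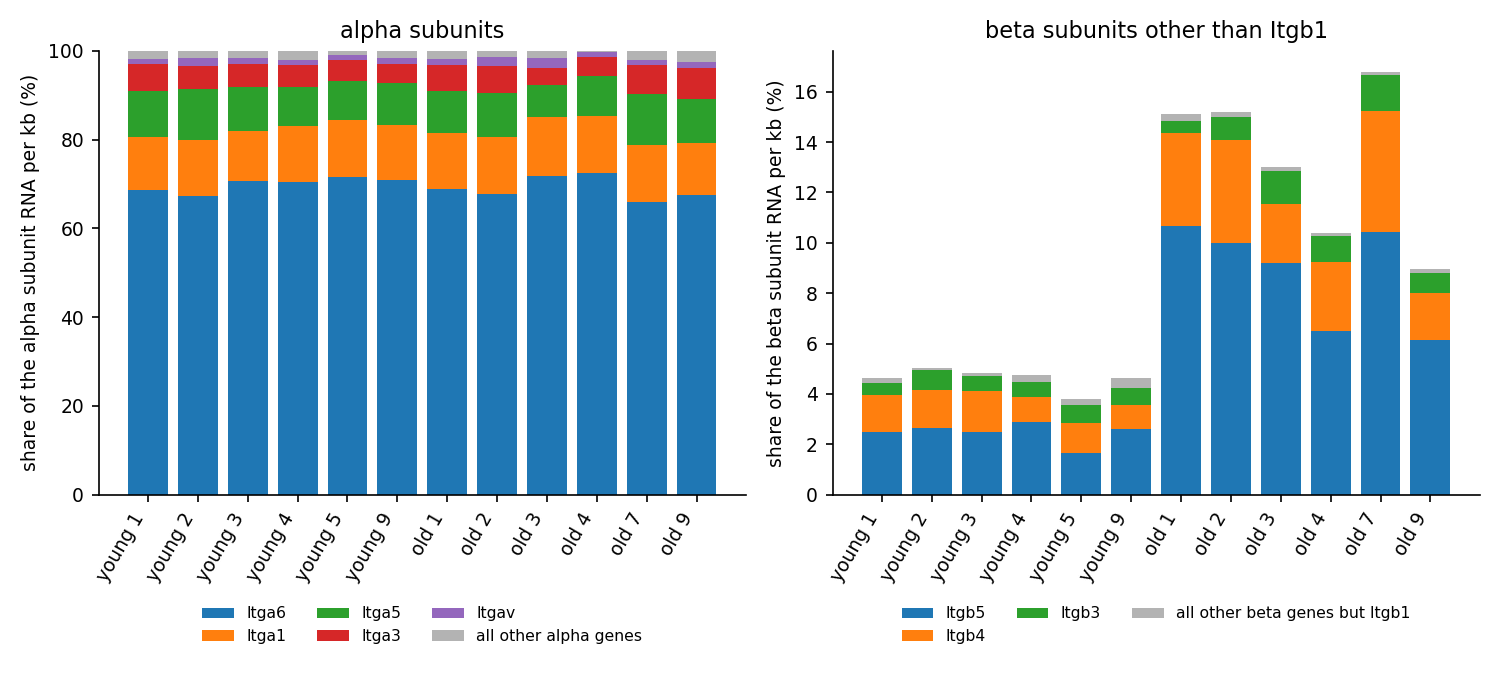
Shares, in percent, of the summed RNA per kilobase of all alpha subunit genes (left) and of all beta subunit genes, drawn without Itgb1 (right), in each sample as stacked bars. Itga6 was the largest part of the alpha pool in all 12 samples, and Itgb5 made up 1.67% to 2.88% of the beta pool in young and 6.16% to 10.7% in old samples.

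Of the 17 other integrin genes, 9 were tested, 1 rose and 0 fell, with a median log2 fold of -0.40. Over all genes tested 3.73% rose and 3.21% fell by limma, with a median of -0.01. The 1 that rose was Itgb4, the beta4 chain that joins alpha6 to bind laminin. Itgb4 was 1560 ± 569 in old and 682 ± 165 in young samples (log2 fold 1.14, limma adjusted p = 0.0102). Its ages overlapped, at 797 to 2191 and 461 to 889, and given the mural score the log2 fold was 1.26 with a wider SE of 0.33 (limma adjusted p = 0.0742). Itgb4 and Itgb5 were the beta genes whose shares of the pool lay higher in old samples without overlap, the Itgb4 share being 1.85% to 4.82% in old and 0.969% to 1.61% in young samples.

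The proteins that switch integrins on and tie them to actin and kinases were followed in a list of 47 genes. Of these 44 were tested, 1 rose (3.73% over all genes) and 4 fell (3.21% over all genes), with a median log2 fold of -0.24. Fermt2, kindlin-2, was 10505 ± 979 in old and 14826 ± 1550 in young samples, without overlap (log2 fold -0.50, limma adjusted p = 0.00576). Fermt3, kindlin-3, which is known from blood cells, rose from 244 ± 74.2 to 567 ± 164 (log2 fold 1.22, 0.00808). Fyn, a Src family kinase at adhesion sites, was 4493 ± 751 in old and 7155 ± 1241 in young samples (-0.67, 0.01). With the astrocyte score as a covariate Fermt2, at a log2 fold of -0.49 (limma adjusted p = 0.0704), and Fyn, at -0.41 (0.269), no longer passed. With the mural score Fermt3, at 1.05 (0.134), and Fyn, at -0.60 (0.136), did not.

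Among membrane proteins that associate with integrins, 17 of 17 were tested. Of these 3 rose (3.73% over all genes) and 1 fell (3.21% over all genes), with a median log2 fold of 0.08. Cd9, a tetraspanin, was 10485 ± 3939 in old and 4982 ± 824 in young samples, without overlap (log2 fold 1.01, limma adjusted p = 0.00799). Lgals3, a lectin that crosslinks glycoproteins, was 97.8 ± 33.2 against 21.8 ± 9.24 (log2 fold 2.2, 0.0052), also without overlap. Nrp1, a co-receptor of VEGF, was 11700 ± 1635 against 16495 ± 1806 (-0.50, 0.0125). None of the 3 passed with the mural score as a covariate (log2 fold 0.75 and limma adjusted p 0.18 for Cd9, 2.24 and 0.0673 for Lgals3, -0.44 and 0.17 for Nrp1). Cd9 did not pass with the astrocyte score (1.10, 0.0533).

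The ligand lists are set beside all 12777 genes tested, of which limma called 3.73% higher and 3.21% lower in old. An unadjusted limma p under 0.05 was found for 3043 of the 12777. Of 11 laminin genes 10 were tested, 0 rose and 1 fell (3 had an unadjusted p under 0.05). Their median log2 fold was -0.23, and edgeR called 0 of the 10. The laminin that fell was Lamb1, the beta1 chain, at 27.4 ± 45.7 in old and 125 ± 42.1 in young samples (log2 fold -3.33, limma adjusted p = 0.0152). With edgeR its log2 fold was -2.20 (adjusted p = 0.127), and over all settings it ran from -4.36 to -1.37. Of 15 collagen genes 9 were tested, 0 rose and 1 fell (6 had an unadjusted p under 0.05), with a median log2 fold of -1.38. The 15 include Col1a1, Col1a2 and Col3a1, which are also fibroblast markers, and the part of fibroblast RNA in this median was not tested. The collagen that fell was Col4a3, of basement membranes, at 61.3 ± 20.8 and 170 ± 72.1 (-1.38, limma adjusted p = 0.0215). Its call was lost without young 2 (0.0529), young 5 (0.0559) or the 3 samples old 7, old 9 and young 9 (0.102). Lamb1 was also lost without those 3 (0.0831). Of 29 RGD and alpha4 ligands 21 were tested, 1 rose and 2 fell, with a median log2 fold of -0.04. L1cam, an adhesion molecule that binds RGD integrins, was 1245 ± 270 in old and 452.5 ± 194 in young samples (log2 fold 1.53, limma adjusted p = 0.00167). The 2 that fell were Tgfbi, at 0.294 against 33.4 normalized counts (limma adjusted p = 0.0101), and Nov, at 4972 ± 2679 against 11101 ± 4290 (0.0287). Tgfbi passed the filter on low values only through its young samples and so had to differ, and edgeR, whose filter left it out, called 0 lower of the 19 it tested. Nov did not pass with edgeR (0.0562), with the astrocyte score as a covariate (-0.94, 0.356) or without old 3 (0.0518), young 1 (0.0535), young 3 (0.07) or young 5 (0.0616). With the mural score as a covariate Lamb1 (log2 fold -1.37, limma adjusted p = 0.407), Col4a3 (-1.31, 0.183), Tgfbi (-3.63, 0.153) and Nov (-1.54, 0.0971) no longer passed.

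**Figure D4:**
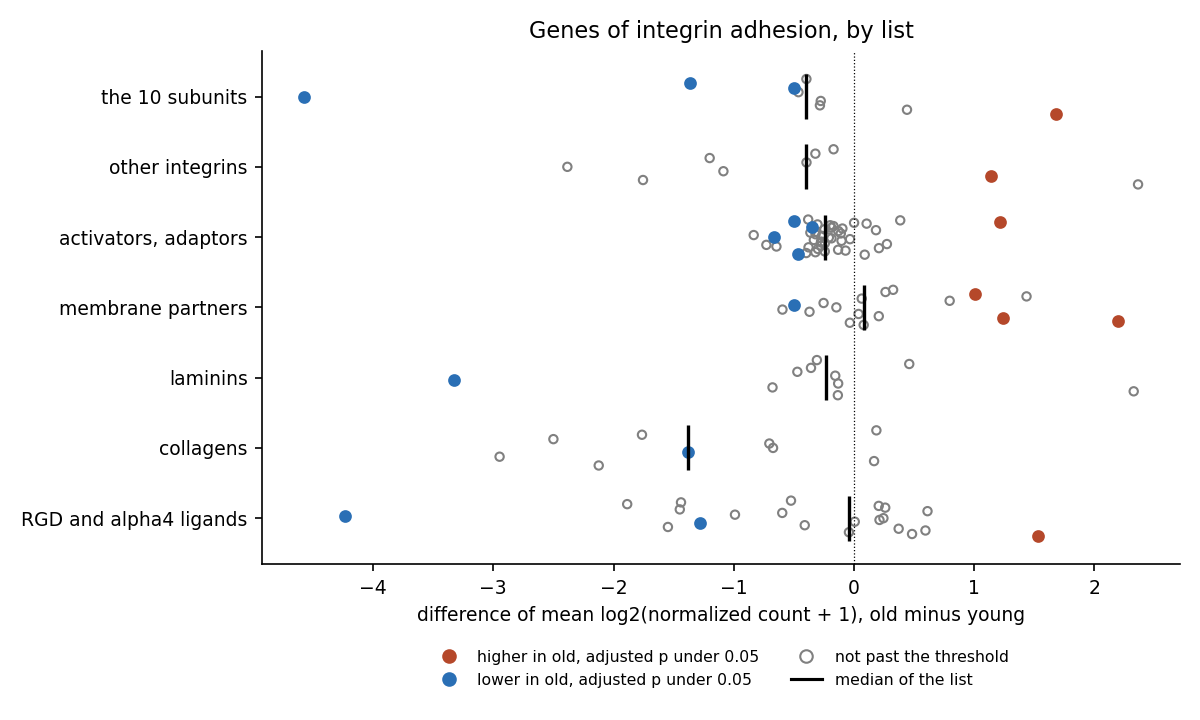
Difference of mean log2(normalized count + 1), old minus young, for each tested gene of the 10 subunits (9 tested) and of 6 lists of integrin adhesion, with a line at the median of each list. Filled points had a limma adjusted p under 0.05. The medians of all lists but the membrane partners, at 0.08, lay below 0. The collagens, fibroblast markers among them, were lowest at -1.38.

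Over 29 other settings of the comparison, Itgb5 was called with the same sign in all 29, with log2 folds of 1.52 to 2.13. Itga4 was called in 28 of 29, Itga5 in 27 of 29 and Itga8 in 27 of the 28 in which it was tested, and each call that was lost was under a marker score as a covariate.

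**Figure D5:**
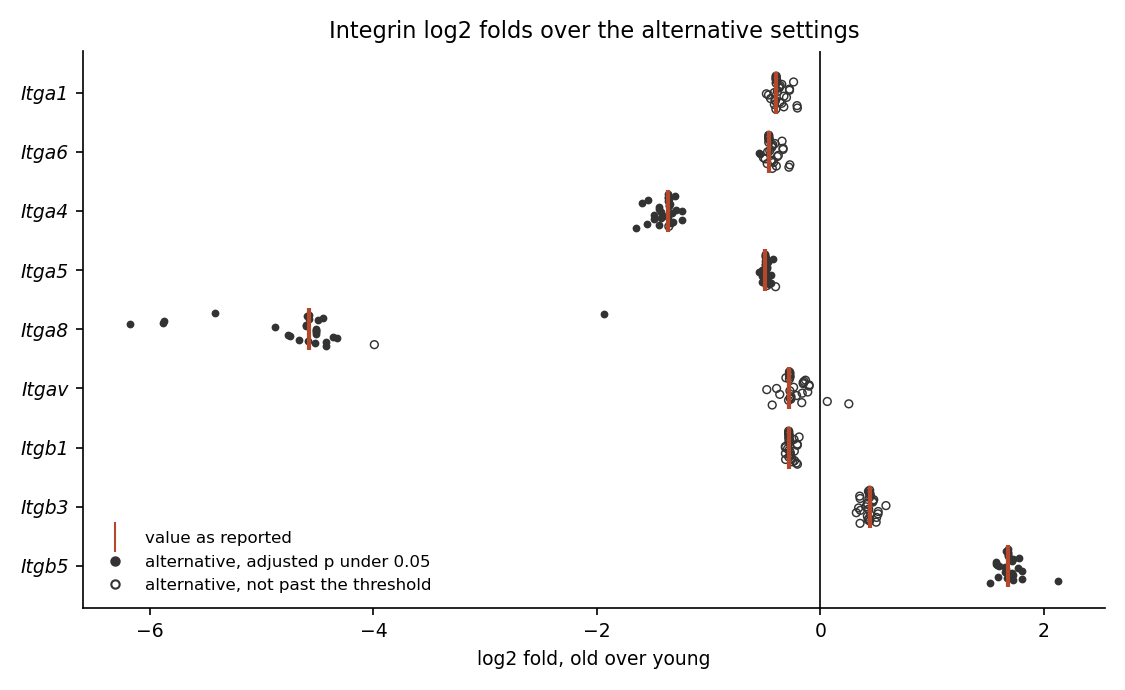
Log2 fold, old over young, of the 9 tested subunits in the fit as reported (vertical marks) and under 29 other settings (points, filled where the adjusted p was under 0.05). Itgb5 stayed between 1.52 and 2.13, Itga4 between -1.65 and -1.23 and Itga5 between -0.54 and -0.40, while Itgav crossed 0 under 2 settings.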

How the data were processed

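Per the labels' protocols, sorted brain endothelial cells gave RNA for SMART-seq v4 cDNA and Nextera XT libraries. FastQC 0.11.2, the aligner STAR 2.4.2a, Cuffdiff 2.2.1, the language R 3.2.2 and mouse build mm9 are listed in the submitters' processing notes. How reads were counted, and on which annotation, is not given in the sources used here. As deposited, the authors' table holds a signal per gene, called normalized counts. Each column was whole reads divided by 1 size factor: 100% of values were whole within 0.001 after division by that step, and the factors equalled median-of-ratios factors in 12 of 12 samples.

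On the scale log2(value + 1), the 12777 genes whose mean reached 10 were fitted, and ages were compared with limma 3.58.1 (mean-variance trend, Benjamini-Hochberg adjustment) in R 4.3.3. Alternative tests on those reads were edgeR 4.0.16 (quasi-likelihood, TMM, 12580 genes, of which 761 were called) and DESeq2 1.42.0. Single genes were also compared with two-sided exact permutation tests. The marker score used as a covariate is the mean log2 value of a list. The 29 alternatives varied the pseudocount, filter, scaling, variance model, sample weights, test, title number as a block, marker scores as covariates and the samples kept. Pathway genes were named as up to 3 per list past the threshold with the smallest p; Cerkl was named after its values were seen, for its overlap. The 10 subunits and all lists were chosen with earlier results of these data known. Every pair of samples of an age differed beyond sampling noise (lowest chi-square per degree of freedom 34). Whether different pools hold different mice is not in the labels: p-values therefore reflect only how far these samples spread, which may be technical.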

Additional observations from a re-analysis of the deposited data

Results flagged for a closer look

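For Itga8, old 1 was far from the other old samples: it held 2.65 normalized counts, from 3 reads, where the other 5 were at 0. Over the 10 subunits and both ages 20 groups of 6 were checked in this way and 1 stood out, and chance marks about 1 group in 20. With 5 samples at 0, any count above 0 in the sixth stands out by this measure, and 3 reads is at the limit that a count of 0 allows. Without old 1 the log2 fold of Itga8 was -4.89 (limma adjusted p = 0.00289).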

How the results depend on the processing

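Over all genes, 887 passed the threshold, with 1380 under sample weights, 1407 with DESeq2, 188 with the mural and 238 with the astrocyte marker score as a covariate, and 554 (without young 4) to 1227 (without young 9) when each sample was left out in turn. Of the integrin subunits 4 passed, against 4 to 5 with samples left out in turn, 5 with DESeq2, 3 at a mean of at least 50, where Itga8 was not tested, 3 with the astrocyte score and 1, Itgb5, with the mural score. Itgav was reversed, to 0.0622 without old 7, old 9 and young 9 and 0.26 with the mural score. The causes of these shifts were not tested. Itga8 and Itga2 had 0 reads in most old samples, so their folds are the least precise.

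Title numbers occur in both ages for 10 samples, and same-numbered samples did not deviate together: correlations of deviations were 0.098, -0.018, -0.16, -0.136 and -0.045 for numbers 1, 2, 3, 4 and 9, and 0 of 5 matched best with its own number. With the number as a block 610 genes passed, and 472 in the same 10 samples without a block, a setting chosen after seeing the data. The same 4 subunits passed with the block. Of the pathway genes named, Lamb1 (limma adjusted p = 0.0613), Col4a3 (0.0854), Tgfbi (0.0596) and Lgals3 (0.0531) did not, and Lamb1 (0.0631) and Col4a3 (0.095) did not in the 10 samples without a block either, nor did Fyn (0.0518), which passed with it.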
